A study of Mus musculus with 20 samples.

Results

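Heat shock proteins and chaperones are described here by 10 genes: the small heat shock proteins Hspb1 and Cryab, the Hsp70 family members Hspa5 and Hspa8, the J-domain cochaperones Dnajb1 and Dnajb5, the Hsp90 family member Hsp90b1, the mitochondrial pair Hspd1 and Hspe1, and the collagen chaperone Serpinh1. They were found as the probe sets whose platform annotation gave a member as the single gene symbol. All 10 were found, of 8220 genes named in this way, on 11 of the 12654 probe sets of the array, 2 of them for Cryab and 1 for each other gene.

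Transcripts were measured in extraocular muscle, which moves the eye, and in leg muscle of mice aged 8 weeks. Mice were of 2 genotypes, wild type (the controls) and mdx; mdx mice lack full-length dystrophin because of a nonsense mutation in Dmd and serve as a model of Duchenne muscular dystrophy. Each of the 4 groups (leg control, leg mdx, extraocular control, extraocular mdx) held 5 single-colour Affymetrix arrays, 20 in all. Strain and sex are not in the labels, and neither is the number of animals behind the replicates, so each p-value speaks for the spread among these arrays, part of which may be technical. They name the leg control tissue as gastrocnemius and soleus and the mdx tissue as leg muscle without naming the muscles. Control and mdx arrays also carry different description texts, so a batch that went with those texts and the genotype cannot be told apart.

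Molecular chaperones bind proteins that are not fully folded and keep them from aggregating. Members of the Hsp70 family do so in cycles of ATP hydrolysis that J-domain cochaperones stimulate, and the same principle works in the cytosol, the endoplasmic reticulum and the mitochondrion with different family members. Cytosolic chaperones are classically induced by heat shock factor through heat shock elements in their promoters, while chaperones of the endoplasmic reticulum are induced by the unfolded protein response through endoplasmic reticulum stress elements. In muscle, chaperones serve the folding and upkeep of the sarcomere, and small heat shock proteins bind to its filaments under stress.

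Signals are given as intensities after each array was scaled to a trimmed mean of 500. Between 47.2% and 52.0% of probe sets reached a signal of 200 on each array. Precision is limited by the number of arrays, 5 in each group. Markers of muscle were high in all groups, with summed signals of 27919 to 96974 over 6 genes. Of the extraocular muscle markers only Myh6 and Alox15 were on the array, and both were too dim to be tested. Their summed signal was 203 to 244 in extraocular control arrays and 37.7 to 87.4 in leg control arrays. In mdx mice the ranges of the sum overlapped, at 91.7 to 251 in extraocular and 47.6 to 109.7 in leg arrays. Myh6 alone carried the difference between the control muscles. Alox15 gave 26.9 to 29.0 in extraocular control and 24.4 to 34.0 in leg control arrays. Leg control arrays were uneven in slow fibre markers, with summed signals of 95282 on array 1 and 3706 on array 4 against 37903 to 39373 on the other 3. In leg muscle the macrophage marker sum was 3704 to 5558 in control and 36774 to 47401 in mdx arrays, and the fibroblast marker sum was 23696 to 28724 in control and 45944 to 54079 in mdx arrays. The log2 ratio of the 3′ to the 5′ beta-actin control probe set was 0.50 ± 0.37 (SD, n = 5) in leg control and -1.86 ± 1.25 in leg mdx arrays, 0.08 ± 0.20 in extraocular control and 0.17 ± 0.35 in extraocular mdx arrays. For the Gapdh control probe sets the same ratio was -2.48 ± 0.84 in leg control and -2.50 ± 0.14 in leg mdx arrays, and -2.35 ± 0.84 in extraocular control and -1.27 ± 0.62 in extraocular mdx arrays. The part of RNA quality in the differences below was not tested.

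In leg muscle 4 of the 7 members that could be tested differed between mdx and control arrays, against a background of 17.9% of the 7204 probe sets tested. Serpinh1 and Hspa5, both chaperones of the endoplasmic reticulum, rose, where 10.7% of all tested probe sets rose. Dnajb5 and Hspe1 fell, where 7.15% did. Those 2 calls rest on the processing: with no filter on low signal neither passed (limma adjusted p = 0.0778 and 0.109), and the Hspe1 call ended under 22 of 33 alternatives. Dnajb5 was tested only because its leg control arrays, where it was highest, met the filter. The filter thus favoured a fall, and the Dnajb5 call cannot be weighed against these backgrounds. In extraocular muscle 0 of the 7 passed between mdx and control, against a background of 0.0833%; 369 probe sets had an unadjusted p under 0.05 there, and 0 of these were members. Nor were the groups of any of the 7 apart there, as those of 1.15% of probe sets were. The tests are limma's moderated tests with Benjamini-Hochberg adjustment over all probe sets tested, and a difference was called at an adjusted p under 0.05. The median log2 difference of the 7 members was 0.03 in leg and 0.00 in extraocular muscle, beside -0.06 and -0.02 over all probe sets tested.

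**Figure D1:**
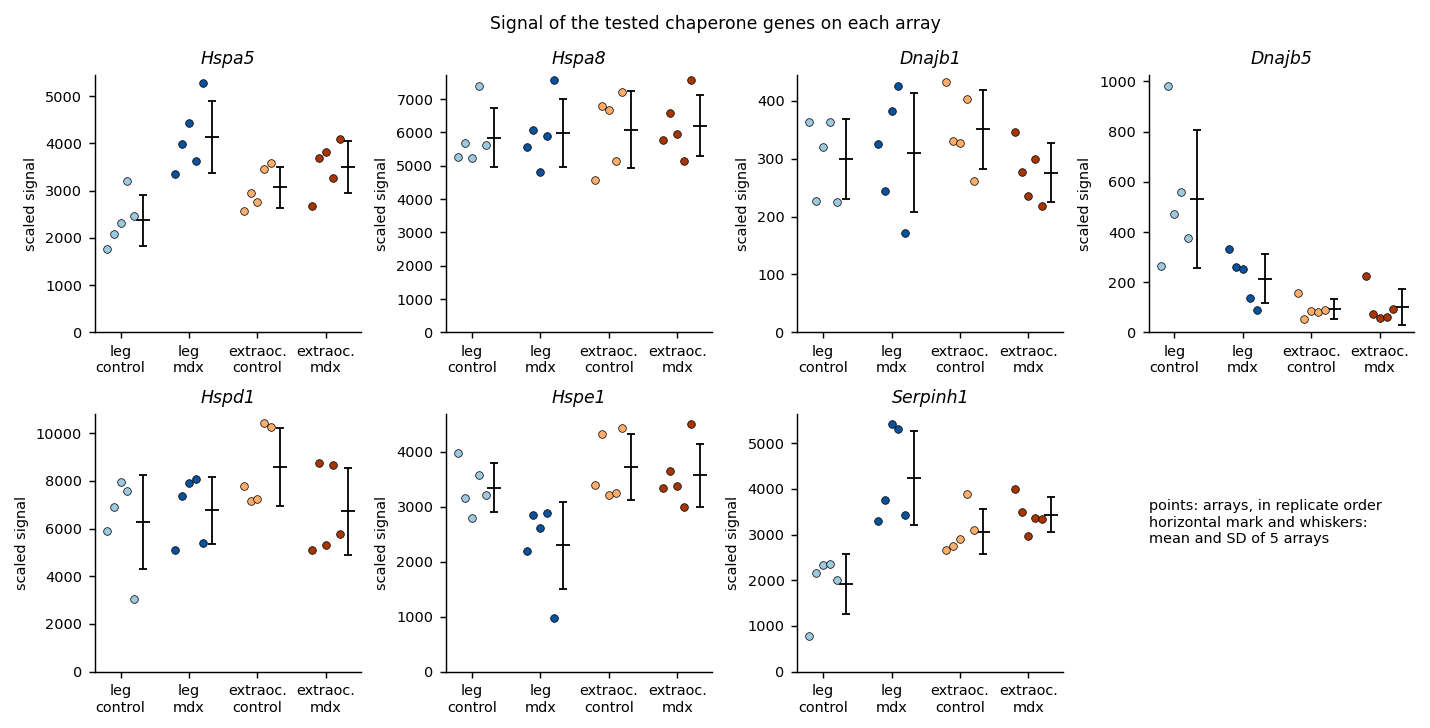
Scaled signal of the 7 tested members on each array (points, in replicate order), with the mean and SD of 5 arrays beside them, for the 4 groups on the horizontal axis. Hspa5 and Serpinh1 lie higher on all 5 leg mdx arrays than on any leg control array, and Dnajb5 lies higher on all 5 leg control arrays than on any extraocular control array.

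Hspa5 encodes BiP, the Hsp70 of the endoplasmic reticulum, which binds nascent secretory and membrane proteins and holds the sensors of the unfolded protein response inactive. Its promoter holds an endoplasmic reticulum stress element, the binding site of the unfolded protein response, and is shown for that reason. The stretch lies just upstream of the transcription start on the forward strand at chr2:34771985-34772083 (build GRCm38.p6, sequence from RefSeq), from 105 to 7 bases before the start. The capitals mark the match to the motif searched, CCAAT and CCACG with 9 bases of any kind between them, 65 to 47 bases before the start.
Hspa5: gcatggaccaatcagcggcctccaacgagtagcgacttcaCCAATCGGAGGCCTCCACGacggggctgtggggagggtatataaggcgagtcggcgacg
Searched on both strands, this motif was in 0.119% of the 32851 mouse promoters of the same length of 300 bases in that set, which runs from 250 bases before to 50 after each start. Such a match describes the letters and is not evidence of binding.

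On its probe set 101955_at, Hspa5 gave signals of 1769, 2091, 2306, 3201 and 2472 on leg control arrays 1 to 5 and of 3352, 3984, 4435, 3622 and 5280 on leg mdx arrays 1 to 5. Every leg mdx array lay above every leg control array, the nearest being 3352 against 3201. Counting Serpinh1, 2 members were separated upward in this way and 0 downward, where 8.38% and 5.19% of all tested probe sets were (13.6% in all). Hspa5 rose 1.76-fold in mdx leg muscle, a log2 difference of 0.81 ± 0.16 (SE, 95% interval 0.48 to 1.14, limma adjusted p = 0.000764). Extraocular control arrays read 2575, 2953, 2769, 3461 and 3577, and extraocular mdx arrays 2674, 3685, 3810, 3263 and 4096. Those ranges overlapped, and the log2 difference was 0.19 with an interval of -0.14 to 0.52 (limma adjusted p = 0.999). The leg difference exceeded the extraocular one by 0.62 ± 0.22 on the log2 scale, which did not pass (limma adjusted p = 0.118). Without leg control array 4, the highest of its group, that difference was 0.74 with an adjusted p of 0.0393.

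Ordered by mean, Hspa5 ran from leg mdx (4135 ± 758) through extraocular mdx (3506 ± 553) and extraocular control (3067 ± 436) to leg control (2368 ± 535), all SD with n = 5. No neighbours in this order had separate ranges. Between the control muscles the log2 difference, extraocular minus leg, was 0.39 ± 0.16 (SE, limma adjusted p = 0.0978). Without leg control array 4 it was 0.51 with an adjusted p of 0.0266.

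Serpinh1 encodes Hsp47, a chaperone of the endoplasmic reticulum that binds the procollagen triple helix, and fibroblasts are a main source of it. On its probe set 94817_at the signals were 774, 2155, 2327, 2355 and 2004 on leg control arrays 1 to 5 and 3285, 3756, 5408, 5303 and 3430 on leg mdx arrays 1 to 5. The groups did not overlap, and leg control array 1 stood well below the other control arrays. Serpinh1 rose 2.31-fold in mdx leg muscle, a log2 difference of 1.21 ± 0.23 (SE, interval 0.73 to 1.69, limma adjusted p = 0.000665). Without leg control arrays 1 and 4 the log2 difference was 0.94 (limma adjusted p = 0.000577).

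In extraocular muscle the control arrays read 2661, 2742, 2909, 3892 and 3107 for Serpinh1 and the mdx arrays 4007, 3503, 2957, 3372 and 3349. The ranges overlapped, and the log2 difference was 0.17 with an interval of -0.31 to 0.66 (limma adjusted p = 0.999). The mdx effect was larger in leg than in extraocular muscle by 1.04 ± 0.33 on the log2 scale, short of the threshold in the fit (limma adjusted p = 0.0660). That call was gained without leg control array 1, 3 or 4, at differences of 0.73, 1.13 and 1.14 and adjusted p of 0.0436, 0.0495 and 0.0449.

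Comparing the muscles of control mice, 2 of the 7 members passed, against a background of 17.7%, and Serpinh1 was the one that was higher in extraocular muscle. The other, Dnajb5, met the filter through leg arrays, so its call cannot be weighed against that background. For Serpinh1 all 5 extraocular control arrays lay above all 5 leg control arrays, where 7.69% of all tested probe sets did (13.5% in either direction). The difference was 1.70-fold, or 0.76 ± 0.23 on the log2 scale (SE, limma adjusted p = 0.0256). It was 0.67 with an adjusted p of 0.0716 without extraocular control array 4, and 0.49 with an adjusted p of 0.0553 without leg control arrays 1 and 4. In mdx mice the order of the means was the reverse, 3438 ± 378 in extraocular and 4237 ± 1036 in leg muscle, with overlapping ranges (log2 difference -0.27, limma adjusted p = 0.477).

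**Figure D2:**
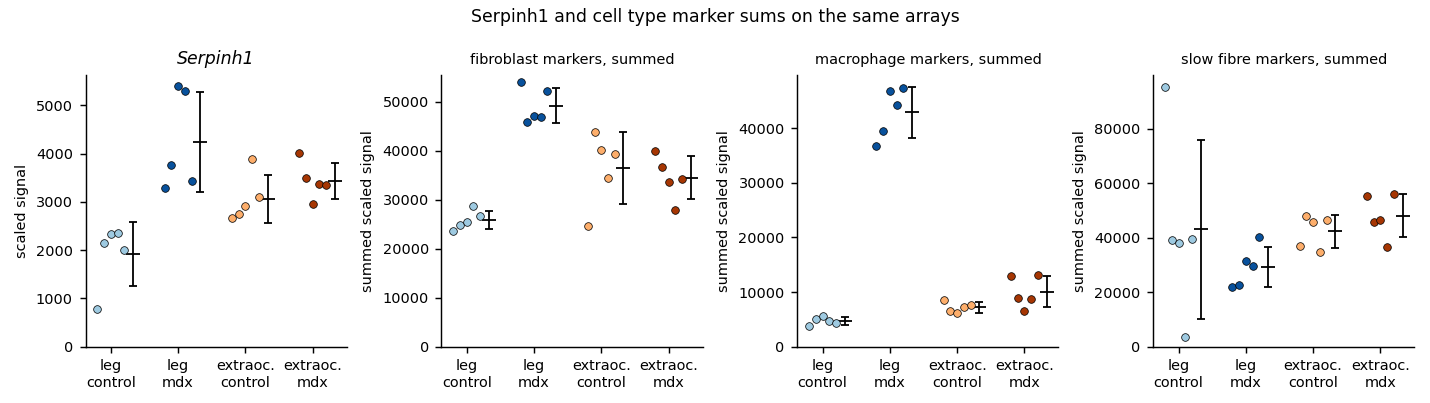
Scaled signal of Serpinh1 and summed scaled signals of fibroblast, macrophage and slow fibre markers on the same 20 arrays (points, in replicate order; mean and SD of 5 arrays beside them). In leg muscle, Serpinh1 and both the fibroblast and macrophage sums lie higher on every mdx array than on any control array, and leg control array 1 has the lowest Serpinh1 signal and the highest slow fibre sum.

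Fibroblast markers moved with Serpinh1: 8 of the 9 that could be tested rose in mdx leg muscle, 0 of 9 passed between mdx and control in extraocular muscle, and 4 of 9 were higher in extraocular than in leg muscle of controls. Macrophage markers rose in 12 of 12 in mdx leg muscle, and 1 of 12 rose in extraocular muscle. Also higher in mdx leg muscle were 3 of 9 markers of satellite and regenerating muscle cells, 1 of 5 of smooth muscle and 1 of 4 of neutrophils. Of all tested probe sets 10.7% were higher there. Between the control muscles, 4 of 5 smooth muscle markers, 2 of 2 nerve and Schwann cell markers and 3 of 12 macrophage markers were higher in extraocular muscle, as Serpinh1 was. So were 2 of 9 slow fibre, 1 of 9 satellite and regenerating, 1 of 8 fast fibre, 1 of 8 endothelial and 1 of 3 epithelial and gland markers. Lower were 1 of 8 fast fibre and 1 of 5 lymphocyte markers. Of all tested probe sets 10.3% were higher and 7.41% lower in this comparison, so counts of 1 of 8 or 1 of 9 are near that share. The gland marker Bpifa2 gave 3578 to 4634 in extraocular control arrays. In leg control arrays it gave 78.1 to 8892, with a median of 386. Between the muscles of mdx mice markers went both ways, with 12 of 12 macrophage markers lower and 4 of 5 smooth muscle markers higher in extraocular muscle. The part of these cells in the Serpinh1, Hspa5, Dnajb5 and Hspe1 differences was not tested. In such bulk samples, more cells of a type and more RNA per cell cannot be told apart.

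Hsp90b1 encodes GRP94, the Hsp90 of the endoplasmic reticulum. Its promoter holds 2 matches to the same endoplasmic reticulum stress element as Hspa5 and is shown for that comparison. The stretch is on the reverse strand at chr10:86705493-86705694 (GRCm38.p6, RefSeq), from 250 to 49 bases before the start. The capitals mark the matches, the second of them on the opposite strand of the motif.
Hsp90b1: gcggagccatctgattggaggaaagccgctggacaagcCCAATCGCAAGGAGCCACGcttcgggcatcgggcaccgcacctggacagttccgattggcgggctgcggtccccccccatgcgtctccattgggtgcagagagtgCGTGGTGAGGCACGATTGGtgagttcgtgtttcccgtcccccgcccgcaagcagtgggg
The level of Hsp90b1 could not be followed. Its probe set 100077_g_at gave 19.1 to 167 over the 20 arrays, below 200 on each, and was not tested.

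Both small heat shock proteins were in the same position. Hspb1 on probe set 92853_at ranged from 13.5 to 152. Cryab, the alphaB-crystallin of lens and muscle, ranged from 25.2 to 190 on probe set 93279_at and from 5.30 to 83.7 on probe set 93280_at. Cryab is known to be abundant in striated muscle. Whether these probe sets measure their genes was not tested, and no difference is given for the 3 genes. In total 4 probe sets of 3 members were left untested, and the counts above cover the 7 members that passed the filter on low signal.

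**Figure D3:**
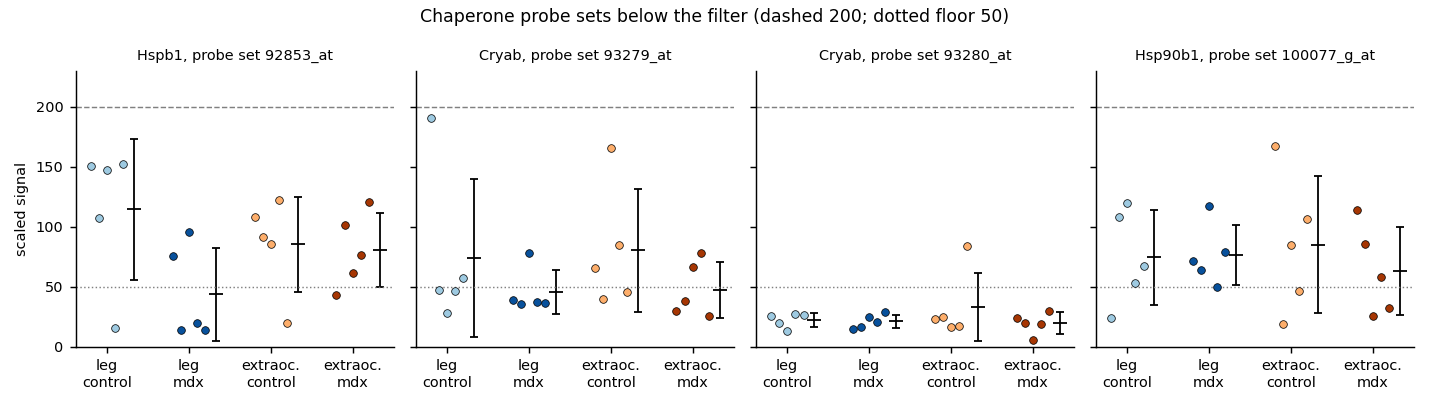
Scaled signal of the 4 untested probe sets on each array (points, in replicate order; mean and SD of 5 arrays beside them) for the 4 groups. No array reaches 200 (dashed line), the level that at least 5 arrays had to reach, and many points lie under the floor of 50 (dotted line).

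In the cytosol, Hspa8 encodes Hsc70, the constitutive Hsp70, which also takes part in clathrin uncoating and chaperone-mediated autophagy. Its signals on probe set 96564_at were 5256, 5687, 5241, 7382 and 5627 in leg control and 5570, 6072, 4823, 5888 and 7588 in leg mdx arrays. The extraocular arrays read 4564, 6795, 6669, 5149 and 7228 in control and 5770, 6583, 5956, 5139 and 7583 in mdx mice. All 4 groups overlapped, with means between 5839 and 6206. The log2 difference of mdx from control was 0.03 in leg (interval -0.28 to 0.35) and 0.04 in extraocular muscle (interval -0.27 to 0.35), with limma adjusted p of 0.914 and 0.999.

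Dnajb1 encodes Hsp40, a J-domain cochaperone that delivers clients to Hsp70 and is induced by heat. On probe set 96254_at its signals were 363, 228, 320, 363 and 226 in leg control and 326, 245, 383, 426 and 172 in leg mdx arrays. The log2 difference was 0.01 with an interval of -0.49 to 0.50 (limma adjusted p = 0.989). In extraocular muscle the means were 351 ± 68.0 in control and 276 ± 51.1 in mdx arrays (SD, n = 5), with overlapping ranges and a log2 difference of -0.35 (limma adjusted p = 0.999). The intervals for Dnajb1 are wider than for Hspa8, and no comparison of the 5 passed.

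Dnajb5, another J-domain cochaperone of Hsp70, had the largest log2 difference between the control muscles among the 7 tested members. On probe set 102620_at its signals were 263, 980, 473, 561 and 375 in leg control arrays 1 to 5. Leg mdx arrays read 333, 261, 251, 139 and 89.2, extraocular control arrays 157, 52.1, 86.7, 82.7 and 89.1, and extraocular mdx arrays 225, 72.0, 57.7, 60.4 and 93.1. The leg control arrays lay above all extraocular control arrays, whereas the leg mdx arrays overlapped both the leg control and the extraocular mdx arrays.

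In control mice Dnajb5 was lower in extraocular than in leg muscle, by a fitted log2 difference of -2.45 ± 0.43 (SE, limma adjusted p = 0.000307). All 5 extraocular control arrays were under 200, the range in which other members were left untested, so the size of this difference rests on dim signals. With those arrays set to 200, a step chosen after the values were seen, leg control arrays were 2.40-fold higher. Separation downward of this kind was seen for 5.83% of tested probe sets. This probe set passed the filter through leg arrays, since 9 arrays reached 200 and 8 of them were leg arrays, so a difference between the muscles was in part required. In mdx mice the log2 difference was -1.14 ± 0.43 (limma adjusted p = 0.0739). It reached -1.42 and -1.48, with adjusted p of 0.0268 and 0.0171, without leg mdx array 5 and without extraocular mdx array 1.

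Within leg muscle Dnajb5 was 2.49-fold lower in mdx than in control arrays, a log2 difference of -1.31 ± 0.43 (SE, interval -2.21 to -0.42, limma adjusted p = 0.0376). The call ended when leg control array 2, 3 or 4 or leg mdx array 4 or 5 was left out, with adjusted p of 0.0603 to 0.119, and with no filter on low signal (adjusted p = 0.0778). All 5 leg control arrays reached 200, which alone met the filter, beside 3 of the 5 leg mdx arrays. The filter thus favoured a fall in mdx arrays. In extraocular muscle the log2 difference was 0.00 with an interval of -0.90 to 0.90, at signals of 52.1 to 225. The difference between the muscles in the mdx effect was -1.31 ± 0.61 and did not pass (limma adjusted p = 0.251).

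Hspd1 and Hspe1 encode Hsp60 and its lid Hsp10, the chaperonin that folds imported proteins in the mitochondrial matrix. The genes lie head to head on chromosome 1 with 215 bases between the starts used here, and a match to a heat shock element lies in that region, for which the stretch is shown as each gene reads it. It is chr1:55088019-55088116 (GRCm38.p6, RefSeq), upstream of both of these starts, on the reverse strand for Hspd1 and the forward strand for Hspe1. The capitals mark 2 overlapping matches, 1 on each strand, to the motif searched, GAA, TTC and GAA in this order with 2 bases of any kind between neighbours, which end 127 bases before the Hspd1 start and 72 bases before the Hspe1 start. A second Hspd1 start in the table lies beyond the Hspe1 start, and from it the stretch is downstream.
Hspd1: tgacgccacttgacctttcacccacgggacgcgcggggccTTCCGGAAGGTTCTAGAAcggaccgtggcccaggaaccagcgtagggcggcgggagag
Hspe1: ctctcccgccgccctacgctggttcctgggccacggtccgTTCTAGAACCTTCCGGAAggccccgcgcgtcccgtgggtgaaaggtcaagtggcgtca
The motif was in 0.603% of the 32851 promoters. Promoter windows were found for 8 of the 10 members, all but Cryab and Hspa8, and this motif was in those of Hspd1 and Hspe1 alone among them. The shorter GAANNTTC, in 7.86% of promoters, was also in that of Hspb1, at 2 places. The windows of Dnajb1, Dnajb5 and Serpinh1 held no match to these motifs, to TTCNNGAA (in 8.52% of promoters) or to the endoplasmic reticulum stress element.

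On probe set 93277_at, Hspd1 signals were 5893, 6901, 7958, 7560 and 3044 in leg control and 5090, 7366, 7893, 8055 and 5377 in leg mdx arrays. In extraocular muscle its mean was 8580 ± 1640 in control and 6720 ± 1826 in mdx arrays (SD, n = 5). All groups overlapped. The log2 difference of mdx from control was 0.16 (interval -0.32 to 0.64) in leg and -0.37 (interval -0.85 to 0.11) in extraocular muscle, with limma adjusted p of 0.703 and 0.999.

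On probe set 92829_at, Hspe1 signals were 3973, 3159, 2793, 3579 and 3220 in leg control and 2195, 2844, 2605, 2883 and 968 in leg mdx arrays. The groups overlapped, and leg mdx array 5 stood far below the rest. Hspe1 was 1.55-fold lower in mdx leg muscle, a log2 difference of -0.63 ± 0.22 (SE, interval -1.08 to -0.18), which just passed (limma adjusted p = 0.0490). Without leg mdx array 5 the difference was -0.34 and did not pass (adjusted p = 0.120). The call also ended under 21 of the other 32 alternatives.

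Extraocular arrays gave Hspe1 signals of 3399, 4324, 3217, 3246 and 4437 in control and 3343, 3646, 3385, 2991 and 4511 in mdx mice, with a log2 difference of -0.06 (limma adjusted p = 0.999). Between the muscles of mdx mice 1 of the 7 members passed, against a background of 18.1%, and it was Hspe1. It was 1.65-fold higher in extraocular muscle, a log2 difference of 0.72 ± 0.22 (SE, limma adjusted p = 0.0236), and the groups lay apart by 2991 against 2883, where 7.38% of tested probe sets were apart upward, 7.02% downward and 14.4% in all. This call ended without extraocular mdx array 5, at a log2 difference of 0.64 and an adjusted p of 0.0636, with no filter on low signal (adjusted p = 0.0604) and with only the groups compared in the fit (0.0657). Without leg mdx array 5 the difference was 0.44.

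Because the pair shares its promoter region, the log2 ratio of Hspe1 to Hspd1 was compared, a comparison chosen after the values were seen. It was -0.84 ± 0.61 in leg control and -1.63 ± 0.49 in leg mdx arrays (SD, n = 5), a change of -0.79 with an exact two-sided permutation p of 0.0476, or 0.0952 adjusted over the 2 muscles. The change leans on leg control array 5, at 0.08 with a low Hspd1 signal of 3044, and leg mdx array 5, at -2.47 with an Hspe1 signal of 968. The other leg control arrays gave -1.51 to -0.57 and the other leg mdx arrays -1.60 to -1.21. In extraocular muscle the change was 0.32 (exact permutation p = 0.254). The ranges overlapped in both muscles, and neither change passed after adjustment.

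**Figure D4:**
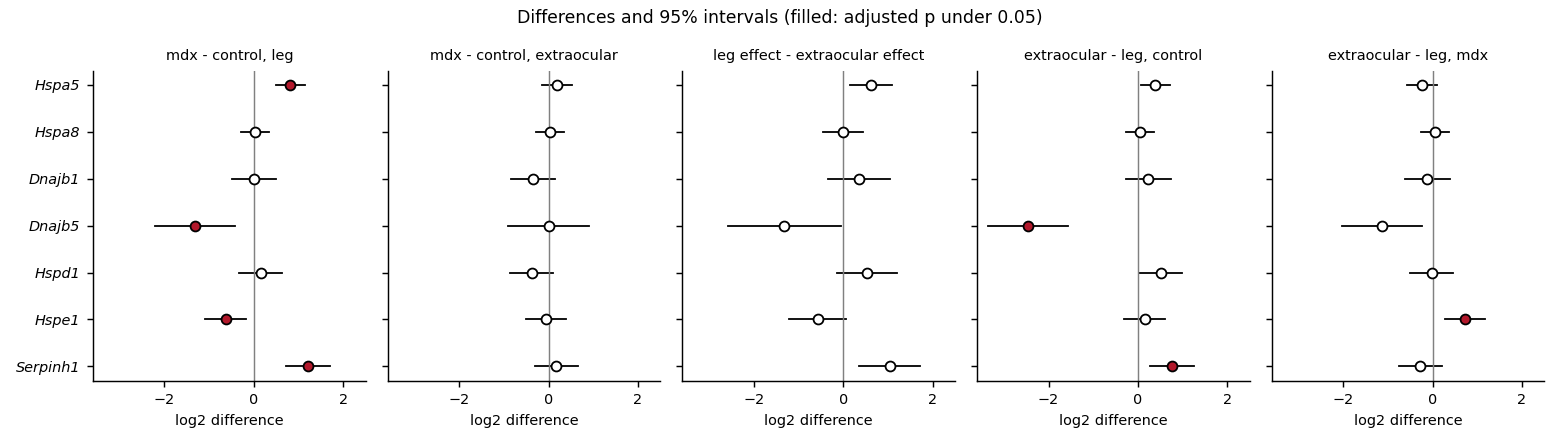
Log2 differences (points) with 95% intervals (lines) of the 7 tested members in the 5 comparisons; filled points have a limma adjusted p under 0.05. Filled points are Hspa5, Dnajb5, Hspe1 and Serpinh1 for mdx minus control in leg muscle, Dnajb5 and Serpinh1 between control muscles, and Hspe1 between mdx muscles.

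The test of whether the mdx effect differed between leg and extraocular muscle called 0 of the 7 members, against a background of 6.22%. By the same limma test 1320 of all tested probe sets had an unadjusted p under 0.05, among them Serpinh1, Hspa5 and Dnajb5. Since Dnajb5 met the filter through its leg control arrays, a negative difference was favoured for it. Its value cannot be weighed against these backgrounds, and the medians of the members include it. The median difference of the members was 0.35, beside -0.02 over all tested probe sets. Between the muscles, extraocular minus leg, the members' median was 0.24 in controls and -0.12 in mdx mice, beside 0.02 and 0.00. The comparison of the control muscles and the mdx comparison in leg muscle share the leg control arrays.

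The genes whose centred log2 values were nearest to each called member over the 20 arrays were as follows, by root mean square difference. For Hspa5 they were Srsf3 (0.18), Caprin1 (0.18) and Dynll1 (0.20). For Serpinh1 they were Anxa5 (0.23), Asah1 (0.24) and Cfl1 (0.26). For Dnajb5 they were Phka1 (0.57), Gpd1 (0.66) and Slc38a4 (0.67). These distances are larger, but so is the spread of Dnajb5 itself. Its own root mean square was 1.20, against 0.38 for Hspa5, 0.58 for Serpinh1 and 0.46 for Hspe1. Phka1, the muscle subunit of phosphorylase kinase, had signals of 2208 to 5178 in leg control and 664 to 1063 in extraocular control arrays. For Hspe1 they were Arl3, Gnpat and Pdrg1, each at 0.24.

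Other genes of protein folding and its clients were taken from 9 lists, with 92 distinct genes tested, of which 10 are collagen chains, clients of the folding machinery. In mdx leg muscle 8 of the 10 chains rose and 0 fell (median log2 difference 1.18). Of the other 82 genes 11 rose (13.4%) and 10 fell (12.2%), against the background of 10.7% and 7.15% given above, with a median of -0.09. Chains were set apart after the values were seen. In extraocular muscle 0 of the 92 passed. Lists share genes, so a gene can be counted in more than 1 list.

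Genes of the endoplasmic reticulum and the unfolded protein response, to which Hspa5 belongs, moved both ways in mdx leg muscle: 7 of 22 rose and 2 fell, with a median of 0.04. Xbp1, a transcription factor of that response, rose 1.70-fold (821 ± 159 to 1388 ± 233, SD, limma adjusted p = 0.000453). The prolyl isomerase Ppib rose 2.09-fold and the stress-induced secreted factor Manf 2.04-fold, with limma adjusted p of 0.00150 and 0.00340. The 2 that fell lie outside the naming rule and are named after their values were seen. Atf4, a transcription factor of the same response, was 1.45-fold lower (6895 ± 795 to 4733 ± 360, limma adjusted p = 0.00452), and Creld2, a stress-induced protein of the endoplasmic reticulum, 1.53-fold lower (1128 ± 155 to 739 ± 124, limma adjusted p = 0.00877). The collagen processing list, which holds the chains and the genes that act on them, had 11 of 18 genes higher and 0 lower, with a median of 0.65. The chains made up 8 of those 11, and 3 of the 8 genes that are not chains rose (median 0.26). Of the chains, Col6a3, Col5a2 and Col3a1 rose 2.75-, 5.49- and 3.35-fold with limma adjusted p of 1.05e-05, 1.18e-05 and 0.000231. A second probe set of Col1a1 in the list did not pass (log2 difference 0.12), while the brighter one did (1.25). Fibroblast markers include Col1a1, Col1a2 and Col3a1 too, and their sum rose with this list, as given above.

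Of 13 Hsp70, Hsp110 and exchange factor genes 0 rose and 1 fell, the Hsp70 gene Hspa1l (1.89-fold, limma adjusted p = 0.00341). Among 14 J-domain genes, which serve the cytosol, the endoplasmic reticulum and the mitochondrion, 3 rose and 3 fell; the 3 with the smallest adjusted p were Dnaja2 (1.52-fold lower, 0.00624), Dnajb4 (1.72-fold lower, 0.00761) and Dnaja1 (1.45-fold higher, 0.00874), all by limma. The Dnaja1 difference was 0.06 on the log2 scale, adjusted p = 0.803, when its probe sets were averaged. The Hsp90 list had 1 of 8 higher and 1 lower. Hsp90aa1, the inducible cytosolic Hsp90, rose 2.49-fold (1108 ± 409 to 2683 ± 701, limma adjusted p = 0.000432), and its immunophilin cochaperone Fkbp4 fell 1.47-fold (adjusted p = 0.000198). None of 7 chaperonin and prefoldin genes passed, and 1 of 13 mitochondrial folding genes did, the protease subunit Clpp, which was 1.51-fold lower (limma adjusted p = 0.00136). The small heat shock protein Hspb2 (1 of 2 tested) was 1.30-fold lower with an adjusted p of 0.0454, a call that ended under 19 of 33 alternatives. A second probe set of Hspb2 had a log2 difference of -0.53 and did not pass (limma adjusted p = 0.0549). Of the transcription factor list only the heat shock factor binding protein Hsbp1 was tested, and it was 1.37-fold lower (limma adjusted p = 0.0210), a call that ended under 3 of 33 alternatives.

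**Figure D5:**
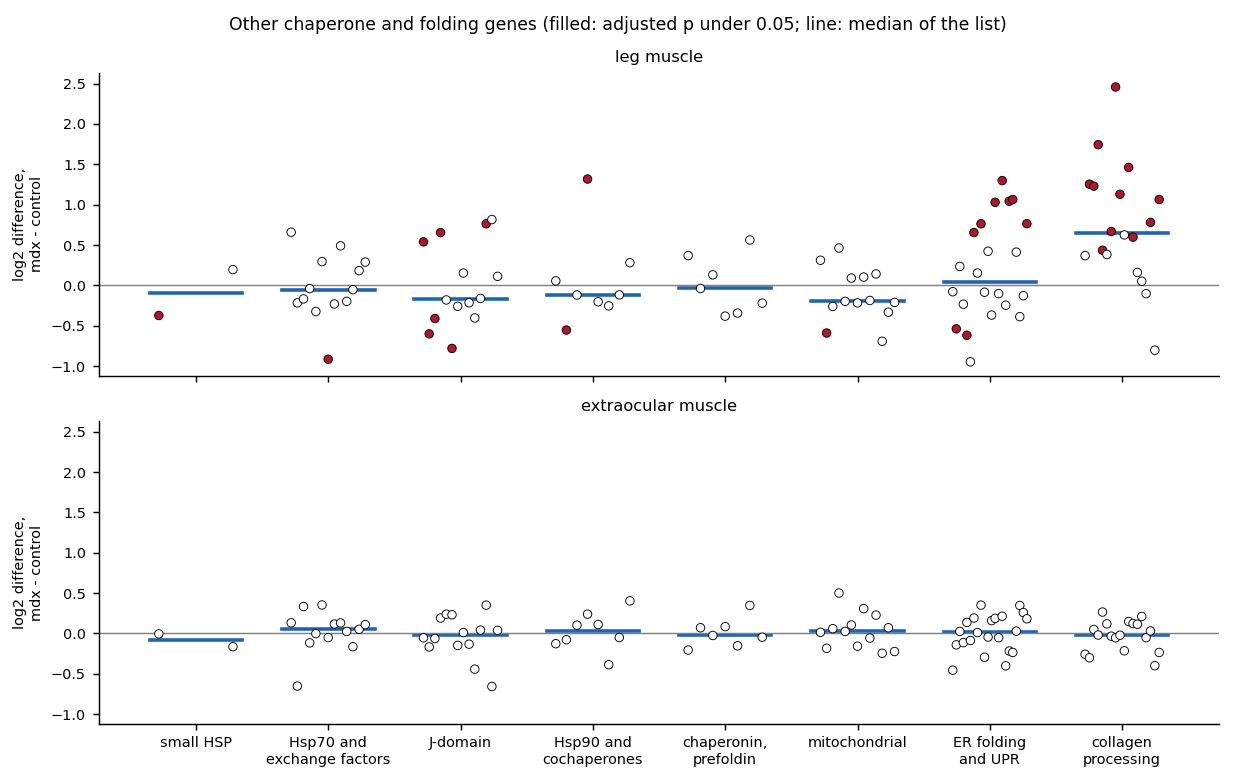
Log2 differences, mdx minus control, of the tested genes of 8 protein folding lists in leg muscle (top) and extraocular muscle (bottom); filled points have a limma adjusted p under 0.05 and the line is the median of the list. Filled points appear in leg muscle alone, and the collagen processing list has the highest median, 0.65.

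Between the control muscles 2 of the 10 collagen chains were higher and 0 lower in extraocular muscle, and of the other 82 genes 14 were higher and 4 lower, where 10.3% and 7.41% of all tested probe sets were. Hsp90aa1 was 2.63-fold higher (1108 ± 409 in leg, 2814 ± 705 in extraocular muscle, limma adjusted p = 0.000263). Among Hsp70 and exchange factor genes 3 of 13 were higher, namely Hspa4l (1.99-fold), Hsph1 (1.47-fold) and Hspa1b (1.93-fold), with limma adjusted p of 0.000381, 0.00169 and 0.0105. Another Hsp70 gene of that list, Hspa1a, did not pass and is named after its values were seen. Its control signals were 778 ± 575 in leg and 822 ± 211 in extraocular muscle. Between the muscles of mdx mice its log2 difference was 0.59 (limma adjusted p = 0.190). The small heat shock protein Hspb8 was 1.92-fold higher (limma adjusted p = 0.00391). The member Hspa8, of the Hsp70 family too, had a log2 difference of 0.05 with an interval of -0.27 to 0.36. In the muscles of mdx mice 0 of the 10 chains were higher and 4 lower in extraocular muscle, and of the other 82 genes 15 were higher and 3 lower, where 9.24% and 8.83% of all tested probe sets were. Hsp70 and exchange factor genes made up 6 of those 15, led by the cochaperone Bag3 (1.41-fold, limma adjusted p = 0.00147) and Hspa1l (2.00-fold, 0.00157). The third, Hspa4, was 1.46-fold higher on its brightest probe set (0.00514) but not on its other 2, whose log2 differences were -0.08 and -0.05. The difference of mdx effects between the muscles was positive for 5 and negative for 0 of the 10 chains, and positive for 2 and negative for 4 of the other 82 genes, beside 4.93% and 1.29% of all tested probe sets, with Col5a2 (2.51), Col6a3 (1.31) and Ppib (1.30) at the smallest adjusted p (0.00170, 0.00501 and 0.0138 by limma).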

How the data were processed

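The authors deposited one linear intensity per probe set and array, and scaled the arrays before deposit, since their 2% trimmed means were nearly equal; which software did so is not stated in the labels. Each array was rescaled to a 2% trimmed mean of 500 over the 12588 probe sets that are not Affymetrix controls. Values under 50 were set to 50, log2 was taken, and the 7204 probe sets at 200 or more on at least 5 arrays were tested. A linear model of the 4 groups was fitted with limma 3.58.1 (R 4.3.3; lmFit, then eBayes with its trend option) over the 20 arrays, leaving 16 residual degrees of freedom. It gave 5 contrasts, each adjusted on its own by Benjamini-Hochberg. Signals are means ± SD before the floor, and folds come from the log2 values.

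The members, the lists and the rules were chosen with earlier results of these data known. The text names all 10 members, up to 3 called genes with the smallest adjusted p per folding list and contrast (not all are given), and the 3 genes nearest to each called member; a gene with several tested probe sets is represented by its brightest, and second probe sets are named where they disagreed. Symbols come from the platform annotation, which is old, and some probe sets may not measure their gene. Promoters come from a RefSeq table, searched on both strands.

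On simulated data of the leg comparison (10 draws of 7204 probe sets, 200 changed), 27.0%, 62.8% and 93.2% of changes of 1.5, 2 and 4-fold were recovered, and 5.07% of calls were of unchanged probe sets. The simulated noise was normal, independent between probe sets and equal in spread in all groups. Far fewer probe sets were changed than the 17.9% called in leg muscle. These rates check the fit and need not hold for the measured arrays. Alternatives changed the scaling (deposited values, quantile normalization), the floor (20, 100, or a pseudocount of 50 in its place), the filter (none, or 500), the model (no trend, array weights, a replicate block, the 2 groups of a contrast alone), the probe set rule (averaging a gene's probe sets) and the arrays (each left out in turn, or leg control 1 and 4 together). The fit of 2 groups alone was not made for the difference of mdx effects, which uses all 4 groups.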

Additional observations from a re-analysis of the deposited data

Results flagged for a closer look

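In 3 of the 28 groups of a tested member, 1 array lay far from the other 4, where chance alone gives about 1 in 20 groups. Serpinh1 on leg control array 1 had a signal of 774, while the other leg control arrays gave 2004 to 2355. Hspe1 on leg mdx array 5 had a signal of 968, and the other leg mdx arrays gave 2195 to 2883. Hspa8 on leg control array 4 had a signal of 7382, while the others gave 5241 to 5687. Leg control arrays 1 and 4 are those with the highest and lowest slow fibre marker sums, and the part of this in the Serpinh1 and Hspa8 values was not tested.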

How the results depend on the processing

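Over 33 alternatives, 20 of which leave out 1 array, 1138 values of the members were recomputed. Of these, 1090 stayed on their side of the threshold, 35 lost a call, 13 gained one and 0 called values changed sign. A value called neither in the main fit nor in the alternative was counted as staying, whatever its sign. In leg muscle Serpinh1 and Hspa5 passed in all 33, with adjusted p up to 0.0118 and 0.00597. The count of members called in leg muscle, 4, was 2 with no filter and 2 to 4 when 1 array was left out (2 without leg control 2, leg control 4 or leg mdx 5). It was 3 without leg control 1 and 4. Other settings lowered it too, since Hspe1 lost its call with a replicate block and Dnajb5 was not tested with the filter at 500. In extraocular muscle the count was 0 under each alternative, and leaving out 1 array gave 0 to 0. For the difference of mdx effects it was 0, but 1 after quantile normalization, 1 with array weights and 0 to 2 when 1 array was left out. Between control muscles it was 2, but 1 with no filter, 1 with a filter at 500, 1 with only the groups compared, 1 without leg control 1 and 4, and 1 to 3 when 1 array was left out. With the filter at 500 Dnajb5 and Dnajb1 were not tested, so that count leaves them out. Between mdx muscles it was 1, but 0 with no filter, 0 with only the groups compared, 2 with array weights and 0 to 2 when 1 array was left out. With a gene's probe sets averaged, Hspa4 between mdx muscles became -0.0039 and Dnaja1 in leg muscle 0.06. The alternatives for the folding lists were added after seeing the data. The causes were not tested.

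The replicate numbers were not taken to pair the samples, since only 4 of 30 correlations of same-numbered deviations were above 0.1 (range -0.08 to 0.23). Within a muscle all 10 were positive (0.01 to 0.23), 4 of them above 0.1. With a replicate block 2 members passed for the difference of mdx effects, Serpinh1 (adjusted p = 0.0450) and Hspa5 (0.0354), Hspa5 passed between control muscles (0.0313), and Hspe1 in leg muscle did not (0.0657). Dim probe sets limit what can be said of Hspb1, Cryab and Hsp90b1, and of Dnajb5 in extraocular muscle.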
